A study of Mus musculus with 8 samples.

Results

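Doxycycline-inducible Argonaute lines were compared here through a single deposited table, in which mouse embryonic stem cells labelled noDox, and by their labels without Argonaute, are set against cells labelled DOX or E14 after 6 days without leukemia inhibitory factor (LIF). Its members are the genes that reached 1 RPKM in either group, which were 12897 of the 24279 genes listed. RPKM divides a gene's reads by its transcript length and by the size of the library, so it is a level per length. Of the members, 10920 reached 1 RPKM in both groups, 1147 in noDox alone and 830 in the other group alone, and the last 2 sets had to differ between groups by the way they entered. The table tested 12382 members, left 511 untested and gave no test for another 4. Nearest to the limit, Mpp3 was at 0.203 and 1.00 RPKM and counted as a member, whereas Lpo was at 0.999 and 0.185 RPKM and did not.

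By genotype, noDox was ESC AGO1-4-/-, DOX was the same AGO1-4-/- background expressing only AGO2 with doxycycline (HA-Flag-AGO2), and E14 was WT E14 ESC. Each had 2 libraries. The labels give all 3 groups the same protocol, so noDox is also listed with 2.5 µg/ml doxycycline daily, with gelatin and without LIF, and the labels describe the E14 cells as the inducible line too. The cells were at passages 8-15, and nothing says whether the 2 libraries of a group came from separate cultures. Every p-value therefore speaks only for those libraries, whose spread may be technical. The tables for DOX and for E14 hold the same values in 24279 of 24279 lines, so they are 1 comparison, and the group is called DOX/E14. The table gives 1 RPKM per group, so values of single libraries, and whether the groups overlap, cannot be given, and the depth of the libraries is unknown. The error beside a log2 fold is the standard error (SE) implied by the deposited statistic.

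Argonaute proteins hold microRNAs, short RNAs that pair through their seed (bases 2 to 8) with messages, mostly in the 3′ untranslated region (UTR), and shorten the life and lower the translation of those messages. In mouse embryonic stem cells the most abundant microRNAs are those of the miR-290 cluster, and the clusters that encode miR-302b-3p and miR-17-5p carry related seeds. Removing LIF lets such cells leave the naive state and start to differentiate, in which let-7 microRNAs normally take over. The sequences below, from RefSeq on GRCm38.p6 with the seed in capitals, show that the seeds of miR-294-3p and miR-17-5p share the letters AAGUGC, moved by a base, while that of miR-92b-3p and miR-367-3p is unlike both. miR-294-3p lies on chromosome 7, miR-302b-3p, miR-367-3p and miR-92b-3p on chromosome 3, miR-17-5p and miR-20a-5p on chromosome 14, and the let-7a-5p copy used here on chromosome 13.
miR-294-3p: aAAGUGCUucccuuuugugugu
miR-302b-3p: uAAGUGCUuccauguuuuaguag
miR-17-5p: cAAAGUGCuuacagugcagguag
miR-20a-5p: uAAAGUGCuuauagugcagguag
miR-92b-3p: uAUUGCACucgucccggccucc
miR-367-3p: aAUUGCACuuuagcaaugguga
let-7a-5p: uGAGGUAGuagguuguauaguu
The seed of miR-294-3p pairs with AGCACTT and that of miR-17-5p with GCACTTT, so the 8 letters AGCACTTT match both.

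Checks of the lines came first. Ago1 was at 0.0159 RPKM in noDox and 16.7 RPKM in DOX/E14 (q = 0.233 in the authors' deposited Cuffdiff table, not called), and Ago2 was at 26.1 and 32.6 RPKM (q = 0.115). Ago3 was higher in noDox, at 7.56 RPKM, than in DOX/E14, at 3.001 RPKM (log2 fold −1.33, SE 0.29, q = 0.00017), and Ago4 was under 1 RPKM in both. An Ago1 level of 16.7 RPKM goes against the label DOX, which names cells with AGO2 only. Ago2 and Ago3 RNA in noDox also goes against the label AGO1-4-/- at the level of RNA. Which part of each gene was deleted is not given in the sources used here, and RNA from outside a deleted part would check nothing. Hprt, the purine salvage enzyme used for drug selection in embryonic stem cells, fell from 11.3 to 0.366 RPKM (log2 fold −4.94, SE 1.00, q = 0.00585). A common derivative of the E14 line is known to lack Hprt, but the labels name no derivative. The Y-linked helicase gene Ddx3y was listed at 0 in noDox and at 11.1 RPKM in DOX/E14, and Uty at 0 and 7.66 RPKM, while Kdm5d was listed at 0 in both. Any direction below therefore rests on an unsettled group name, and Argonaute cannot be told apart from other differences between the lines.

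The labelled cell type was checked against its markers. All 15 markers of pluripotent stem cells were members in both groups, and Pou5f1, the central factor of that state, stood at 501 and 542 RPKM (q = 0.652). Of the 15, 7 were called lower in DOX/E14, among them Nanog from 431 to 69.3, Esrrb from 189 to 33.7 and Sox2 from 184 to 53.2 RPKM, and 4 were called higher, namely Lin28a, Dnmt3b, Utf1 and Sall4. Their summed level was 4981 RPKM in noDox and 2835 RPKM in DOX/E14, and Dppa5a, from 2555 to 645 RPKM, made up most of that drop. The 10 markers of feeder fibroblasts summed to 1.86 and 11.5 RPKM over the 4 that were members, with Lum at 0 in both groups and Postn at 0 and 0.180 RPKM. Col1a1 supplied most of the DOX/E14 sum, at 0.0485 and 7.79 RPKM (q = 0.0739). Of 12 markers of primitive and parietal endoderm 5 were members and summed to 111 and 123 RPKM, of which Sparc made up 98.6 and 103 RPKM, and Afp was listed at 0 in both groups. The 10 trophoblast markers had 6 members that summed to 23.2 and 30.2 RPKM, with Prl3d1 and Tpbpa at 0 in both groups. Of these, Eomes, Ascl2 and Krt7 were called higher, Krt7 from 2.05 to 8.60 RPKM, and Tfap2c lower, from 18.4 to 10.8 RPKM. Neural markers (7 members of 10) summed to 35.1 and 61.6 RPKM, with Neurog2 at 0. Tubb3, not called, held 28.9 and 30.8 RPKM of that sum. Sox1, Pax6, Nes and Elavl3 were called higher, Sox1 from 0.351 to 5.05 and Nes from 2.86 to 19.05 RPKM. Mesoderm and heart markers (4 members of 10) summed to 3.58 and 17.04 RPKM, with Mesp1 at 0. Actc1, at 0 and 10.1 RPKM, was called higher and Kdr lower, while T, at 0.0296 and 5.10 RPKM, was not called. The part of these other cell types in the results was not tested. In bulk RNA, fewer cells of a type and less RNA per cell cannot be told apart.

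More tested genes differed between the groups than did not. The authors' deposited table called 6878 of the 12382 tested members at a q under 0.05, or 55.5%, of which 3368 (27.2% of those tested) were higher in DOX/E14 and 3510 (28.3%) lower. Without the genes that entered through 1 group alone, 5879 of 10855 were called, 2968 higher and 2911 lower. Called rises had a median log2 fold of 0.99 and called falls one of −1.26, and changes past 3 on the log2 scale numbered 194 rises and 391 falls. Another 33 called genes were listed at 0 in noDox and 31 in DOX/E14. The median log2 fold was 0.01 over all tested members, and 0.04 over those at 1 RPKM or more in both groups, whose quartiles were −0.62 and 0.61. The median SE of tested members was 0.32. A list count below is to be read against those shares.

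**Figure D1:**
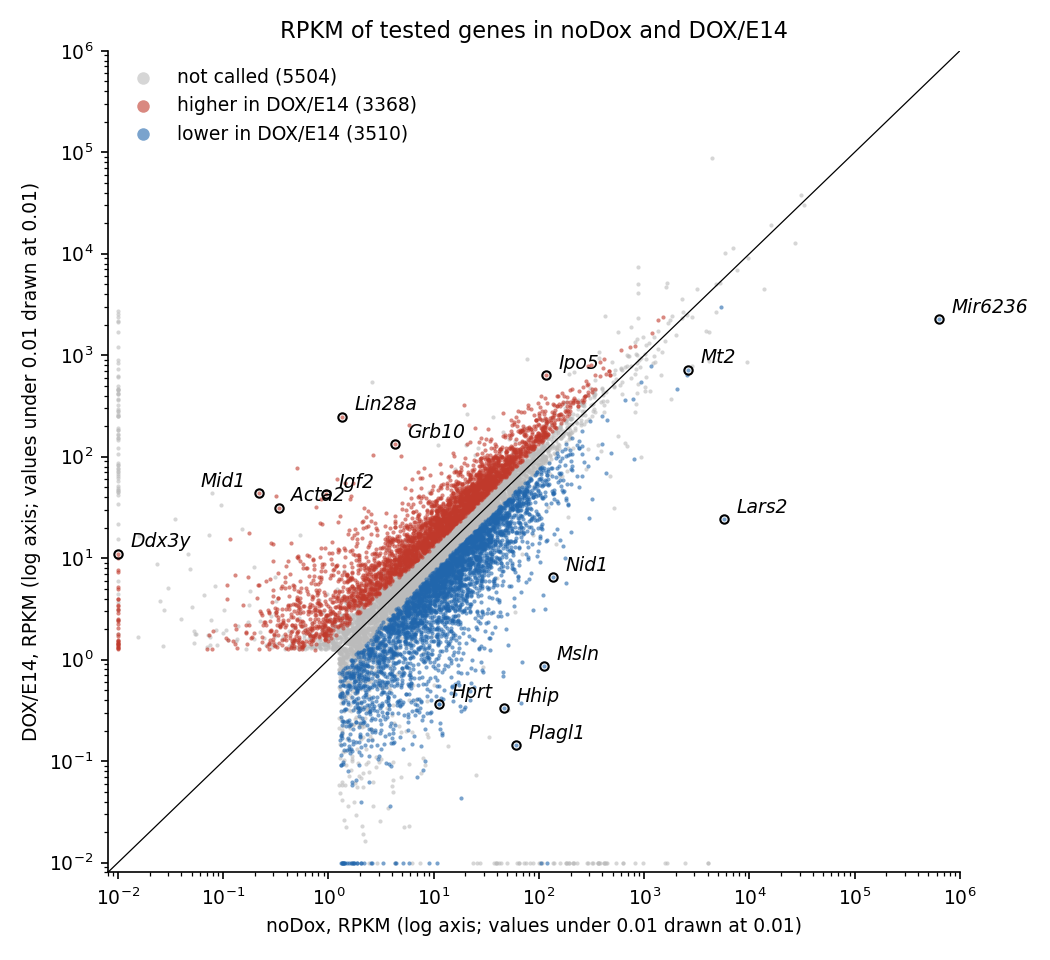
RPKM in noDox (x axis) and in DOX/E14 (y axis), both on log axes, for the 12382 tested members, with the line of equal levels. Red points are the 3368 genes higher in DOX/E14, blue points the 3510 lower ones and grey points those not called; the 2 clouds flank the line over its whole length, and the column and the row at 0.01 are genes listed at 0 or under 0.01 RPKM in 1 group.

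The 15 largest rises came from genes of varied roles. Spry2, a feedback inhibitor of receptor tyrosine kinases, went from 2.68 to 103 RPKM (log2 fold 5.26, SE 0.36, q = 0.00017), and Dusp4, a phosphatase of ERK kinases, from 1.72 to 55.4 RPKM. Grb10, an imprinted adaptor that restrains insulin signalling, rose from 4.25 to 133 RPKM (log2 fold 4.97, SE 0.30). Pttg1, the securin that holds sister chromatids until anaphase, rose from 1.21 to 60.4 RPKM, and Myl9, a regulatory light chain of nonmuscle and smooth muscle myosin, from 0.855 to 38.1 RPKM. Mid1ip1, which binds the microtubule protein Mid1, rose from 0.754 to 32.2 RPKM, beside Mid1 itself. Steap1, a membrane protein of the cell surface, and Glipr2 rose from 0.839 to 22.4 and from 1.45 to 55.3 RPKM. The remaining 7 of the 15 largest rises were Mid1, Lin28a, Phlda2, Cdkn1c, Acta2, Igf2 and Tagln, with log2 folds between 5.15 and 7.63.

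The 15 largest falls were as varied, from surface and secreted proteins to enzymes. Msln (mesothelin, a surface glycoprotein) fell from 111 to 0.861 RPKM (log2 fold −7.01, SE 0.51), Aqp3, a water and glycerol channel, from 113 to 3.12 RPKM, and Naaa, a lysosomal amidase, from 69.4 to 0.955 RPKM. Vwf, the clotting protein of endothelium and platelets, went from 22.2 to 0.404 RPKM (log2 fold −5.78, SE 0.40). Prss35, a protease-like protein, and Megf11, a cell surface protein of neurons, started from 45.3 and 45.5 RPKM and ended below 1 RPKM. Cfp (properdin, which stabilises the complement enzyme) fell from 51.3 to 1.40 RPKM. Fcgrt, the neonatal Fc receptor, Apom, a lipoprotein constituent, Lrrc31 and Tns1, a focal adhesion protein, had log2 folds from −5.49 to −5.26. Plagl1, Copz2 and Hhip, with log2 folds from −8.70 to −7.14, were also among the 15 largest falls. Fat2, a giant protocadherin, fell from 18.2 to 0.0431 RPKM. Lars2 was called lower from 5777 to 24.1 RPKM with an SE of 10.22, larger than its log2 fold of −7.90. Mir6236, at 636419 RPKM in noDox and 2273 in DOX/E14, made up much of the noDox sum of 1255200 RPKM; the source of the reads of both was not tested.

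Genes near 0 in noDox and present in DOX/E14 included developmental signals and differentiation factors. Besides Actc1 (cardiac actin, listed at 0 and at 10.1 RPKM), Wnt8a, a Wnt ligand of the primitive streak, was listed at 0 and 3.99 RPKM, Gap43, a growth cone protein, at 0 and 3.94 RPKM, and Insm1, a factor of neuroendocrine cells, at 0 and 3.45 RPKM. In the other direction Grin1, a glutamate receptor subunit, was at 6.90 and 0.0703 RPKM and Tff2, a trefoil peptide of mucus, at 4.40 RPKM and listed at 0. Since both sets were picked for being absent from a group, their folds carry no further weight.

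**Figure D2:**
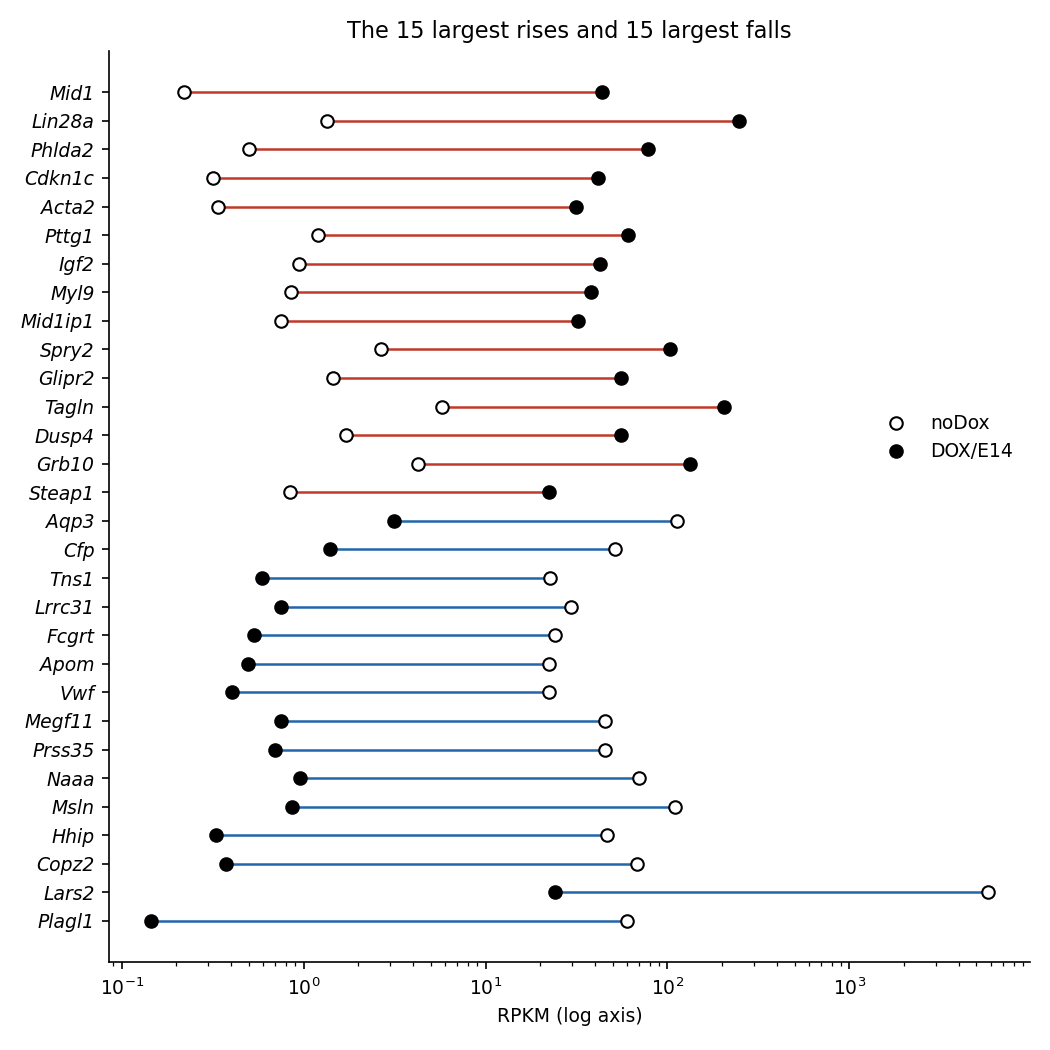
RPKM on a log axis in noDox (open circles) and DOX/E14 (filled circles) for the 15 largest called rises (red lines) and the 15 largest called falls (blue lines) among genes with at least 20 RPKM in the higher and 0.1 RPKM in the lower group. Each circle is 1 group value over 2 libraries; Lin28a and Lars2 hold the highest level of each set.

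Not every abundant gene moved. Of 467 tested genes at 100 RPKM or more in both groups, 277 were not called. Actb (cytoplasmic actin) was at 2316 and 2675 RPKM (q = 0.612) and Eef1a1, which delivers tRNA to the ribosome, at 2006 and 1573 RPKM (q = 0.306). Small differences among such genes included those of Rpl23 at 125.5 and 125.2 RPKM, of Rrn3, a factor of ribosomal RNA synthesis, at 104.3 and 103.8 RPKM, and of Sod1, a superoxide dismutase, at 432 and 437 RPKM, each with an SE between 0.25 and 0.26 on the log2 scale. The metallothioneins Mt2 and Mt1, which bind zinc and copper, fell from 2584 to 721 and from 2048 to 467 RPKM (log2 folds −1.84 and −2.13, SE 0.28 each). Rplp1 and Rpl8, ribosomal proteins among the 10 highest genes of DOX/E14, rose to 2368 and 2198 RPKM from 1493 and 1338 RPKM.

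Signalling pathways were not uniform, and in several the ligands or receptors changed in opposite directions. In the FGF and ERK pathway, through which FGF4 drives exit from the naive state, 20 of 40 tested genes were higher and 7 lower (median log2 fold 0.67, against 0.01 over all tested members, to which every list median below compares). The ligand Fgf4 fell from 139 to 47.4 RPKM and Fgf17 rose from 2.54 to 23.1 RPKM. Fgfr1 and Fgfr2, receptors, rose from 24.5 to 39.3 and from 3.31 to 6.71 RPKM. The exchange factors Sos1 and Sos2, which load Ras with GTP, fell from 20.9 to 4.37 and from 7.75 to 2.76 RPKM, whereas Hras and Nras rose, Nras from 16.3 to 47.7 RPKM (log2 fold 1.55, SE 0.26). The ERK-induced factor Etv4 rose from 2.38 to 29.4 RPKM, Etv5 from 44.01 to 73.4, and the feedback genes Dusp6, Spry1 and Spry4 to 67.5, 12.7 and 32.6 RPKM from 17.9, 3.50 and 7.92 RPKM. Of the immediate early genes, Fos and Egr1 fell from 8.11 to 1.04 and from 13.3 to 3.56 RPKM. Junb rose from 12.95 to 20.35 RPKM, and Jun, at 7.45 and 7.57 RPKM, Ier2 and Ier3 were not called.

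In the Notch pathway, which signals between touching cells, 11 of 32 tested genes were higher and 9 lower (median 0.25). The ligands Jag1, Jag2 and Dll1 rose, Jag2 from 3.58 to 16.3 RPKM and Dll1 from 0.133 to 2.00 RPKM. Of the 4 receptors, Notch3 rose from 4.29 to 20.2 RPKM (log2 fold 2.24, SE 0.27), and Notch1, Notch2 and Notch4 fell, Notch1 from 23.2 to 5.89 RPKM (log2 fold −1.98, SE 0.26). The cleaving enzymes Adam10, Adam17 and Psen2 fell, Adam10 from 25.4 to 5.78 RPKM. Lfng and Mfng, sugar transferases that tune the receptors, rose to 5.59 and 2.31 RPKM. The target gene Hes1 fell to 9.21 RPKM (log2 fold −1.32), and Hes6, a factor that opposes Hes1, rose from 3.48 to 20.9 RPKM.

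The Hedgehog pathway had 4 rises and 4 falls among 13 tested genes (median 0.14). Smo, its signal transducer, rose from 1.55 to 18.9 RPKM (log2 fold 3.60, SE 0.36) and Gli3 from 3.91 to 11.6 RPKM, while the targets Gli1, Ptch1 and Hhip fell, Gli1 from 17.2 to 8.85 RPKM. The BMP pathway had 8 rises and 6 falls among 24 tested genes (median 0.12). The ligand Bmp4 rose from 1.27 to 6.30 RPKM and the extracellular inhibitor of activin Fst from 0.647 to 6.62 RPKM. The Id genes, inhibitors of helix-loop-helix factors that BMP induces, split, with Id1 from 8.17 to 76.9 RPKM, Id3 from 9.25 to 44.02 RPKM and Id4 from 14.5 down to 0.676 RPKM. The inhibitory Smad6 and Smad7 fell from 8.64 to 1.10 and from 25.9 to 12.6 RPKM. In the retinoic acid pathway 6 of 17 tested genes rose and 7 fell (median 0.46). The carrier Crabp1 and the receptors Rarg, Rxrb and Rxrg rose, Rarg from 23.7 to 62.9 RPKM, and Rxra, the corepressor Ncor1, and Dhrs3, which turns retinal back into retinol, fell, the last from 17.4 to 1.68 RPKM.

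Of 13 genes of the Myc network, all tested, Myc and Mycl rose and 6 fell (median −0.48). Myc, the growth-promoting factor, went from 2.16 to 30.9 RPKM, whereas its dimer partner Max fell from 91.2 to 35.6 RPKM (log2 fold −1.36, SE 0.26) and the antagonists Mxd1, Mxd4, Mxi1, Mnt and Mga fell as well. Among Kruppel-like and Sp factors, which bind GC-rich promoters, 5 of 20 rose and 9 fell (median −0.34). Klf12 rose from 0.387 to 6.52 RPKM and Klf6 from 16.1 to 33.5 RPKM, while Klf8 fell from 22.6 to 4.20, Klf3 from 49.9 to 20.2 and Klf11 from 10.7 to 3.98 RPKM.

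Genes of protein and RNA production were mostly higher in DOX/E14. Of 54 tested genes of cytosolic ribosome assembly 48 rose and none was called lower by Cuffdiff, with 49 higher and 1 lower at an unadjusted p under 0.05 (median 0.92). Their summed level was 2509 RPKM in noDox and 4690 RPKM in DOX/E14. Mrto4, which acts in building the large subunit, rose from 17.6 to 70.5 RPKM (log2 fold 2.00, SE 0.30), Nhp2, a core protein of H/ACA RNA particles, from 63.8 to 227 and Rrp9, of the U3 particle, from 28.2 to 96.8 RPKM. Of 77 mitochondrial ribosomal proteins 49 rose and 2, Mrps15 and Mrps2, fell (median 0.72), led by Mrps26 from 11.8 to 53.0 and Mrpl34 from 30.05 to 134 RPKM. Of 23 cytosolic tRNA synthetases and partners 19 rose and 0 fell, and the counts at an unadjusted Cuffdiff p under 0.05 were also 19 and 0 (median 0.77). Wars, which charges tryptophan tRNA, rose from 11.6 to 69.4 RPKM (log2 fold 2.58, SE 0.30). Among 31 genes of serine, glycine and one-carbon metabolism 20 rose and 4 fell (median 0.70), with Psat1 from 63.5 to 279 RPKM, and Amt, of the glycine cleavage system, down from 103 to 44.3 RPKM.

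Of 65 splicing factors 39 rose and 5 fell (median 0.64). The 7 Sm proteins that ring the spliceosomal RNAs all rose, with Snrpg from 38.8 to 128 RPKM, Snrpe from 68.4 to 179 RPKM and Snrpb from 153 to 395 RPKM. The 5 that fell were the regulators Nova2, Rbm47, Mbnl1 and Qk, which bind chosen messages, and Srsf5. Of 57 nuclear pore proteins and transport receptors 38 rose and 0 fell, with 39 and 0 at an unadjusted Cuffdiff p under 0.05 (median 0.67). Ipo5, an importin that carries ribosomal proteins and histones into the nucleus, rose from 116 to 639 RPKM (log2 fold 2.47, SE 0.34), and Rcc1, which charges Ran with GTP, from 25.9 to 107 RPKM. Of 60 genes of DNA replication and nucleotide supply 43 rose and 1, Impdh1, fell (median 0.68), with Dut, which keeps uracil out of DNA, from 18.04 to 73.2 RPKM and Atic, of purine synthesis, from 55.3 to 167 RPKM. Of 57 genes of mitosis 28 rose and 2 fell (median 0.46), the last being Cenpt, from 88.1 to 39.98 RPKM, and Anln.

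Most genes of the proteasome were higher too. Of 39 genes 29 rose and 3 fell (median 0.64), among them Psmd14, the deubiquitinase of the lid, from 44.5 to 123 RPKM. The 3 falls were those of Psmb8, an interferon-induced catalytic subunit, from 5.30 to 2.06 RPKM, and of the activator subunits Psme1 and Psme2, from 84.6 to 42.8 and from 29.7 to 16.8 RPKM, while of the other immune catalytic subunits Psmb10 rose from 10.7 to 28.8 RPKM and Psmb9 was not called, at 1.88 and 2.96 RPKM. Genes of MHC class I and peptide loading were mostly lower, with 9 falls and 1 rise (Psmb10, which both lists hold) among 17 tested genes (median −0.84). Tapbp, which bridges the peptide transporter to MHC class I, fell from 72.1 to 17.8 RPKM (log2 fold −2.02, SE 0.27), and the transporter genes Tap1 and Tap2 from 7.64 to 3.93 and from 5.66 to 1.18 RPKM. Of the class I chains H2-D1 fell from 15.0 to 8.56 RPKM, whereas H2-K1, at 16.4 and 21.03 RPKM, H2-Q4, at 2.63 and 2.92 RPKM, and their partner B2m, at 30.5 and 24.9 RPKM, were not called. The 9 falls include H2-Ke6, a steroid dehydrogenase gene of the same region and no class I gene, whose log2 fold of −0.84 is the list's median. Of 44 chaperones 20 rose and 6 fell (median 0.31). The rises included 7 subunits of the TRiC/CCT folding chamber with Cct in their names and Tcp1, with Cct4 from 173 to 400.3 RPKM, and the falls the small heat shock proteins Hspb1 and Hspb8, from 399 to 134 and from 64.6 to 8.56 RPKM.

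Within energy metabolism single steps went both ways. Of 28 genes of glycolysis and its transporters 13 rose and 7 fell (median 0.50). Glucose entry through Slc2a1 rose from 79.96 to 194 RPKM, the enzymes Aldoa, Pgk1, Pkm and Ldha rose with log2 folds between 1.16 and 1.35, and the lactate exporter Slc16a3 rose from 7.76 to 61.3 RPKM (log2 fold 2.98, SE 0.30). Hk1, the first enzyme, fell from 30.7 to 6.00 RPKM while its sister Hk2 rose from 30.2 to 51.1 RPKM. Ldhb, which favours the reverse reaction of Ldha, fell from 230 to 64.9 RPKM. The kinase genes Pdk2 and Pdk4 fell from 3.63 to 0.674 and from 8.46 to 0.571 RPKM. Pdk1 and Pdk3 of the same family, more abundant at 26.1 and 21.2 RPKM in noDox, were not called (Cuffdiff q = 0.365 and 0.845). Of 74 nuclear genes of oxidative phosphorylation 18 rose, 2 fell and 54 were not called (median 0.22), so their share of calls lay below the 55.5% of all tested genes. Among 40 genes of cholesterol and fatty acid synthesis 11 rose and 9 fell, with a median of 0.06 that turned to −0.03 when RPKM was rescaled without short RNA genes. Acacb, a mitochondrial acetyl-CoA carboxylase, fell from 14.04 to 2.56 RPKM.

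Genes of the lysosome and autophagy were more often lower, with 21 falls and 9 rises among 45 (median −0.37). Ulk1, the kinase that starts autophagy, fell from 118 to 15.2 RPKM (log2 fold −2.96, SE 0.27) and Lamp2, a lysosomal membrane protein, from 79.4 to 12.96 RPKM. Tfe3, a transcription factor of lysosomal genes, rose from 19.4 to 45.1 RPKM. Mitf, at 2.38 RPKM in noDox against 0.646 in DOX/E14, and Tfeb, at 5.75 against 3.42, were called lower on the same list. Of 39 apoptosis genes 11 rose and 6 fell (median 0.17), with Birc3, an inhibitor, from 9.59 down to 1.81 RPKM.

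The matrix list leaned lower and the contractile list higher. Of 33 tested genes of collagens, laminins and basement membrane 16 fell and 8 rose (median −0.52). Nid1 (nidogen, which links laminin to collagen IV) fell from 135 to 6.56 RPKM (log2 fold −4.36, SE 0.28), Fn1 (fibronectin) from 258 to 64.9 RPKM, Lamb2 from 18.7 to 5.41 and Col18a1 from 241 to 121 RPKM. Col4a1, Col4a2, Lama1 and Lamb1, chains of the first embryonic basement membranes, rose, Lamb1 from 28.6 to 41.7 RPKM, as did the integrins Itga3 and Itgb1, Itga3 from 20.7 to 83.7 RPKM. Of 41 genes of the contractile cytoskeleton and of the SRF and YAP factors 22 rose and 4 fell (median 0.63). Acta1 (skeletal actin) rose from 1.59 to 38.6 RPKM, Tpm1 and Tpm2 (tropomyosins) to 338 and 14.3 RPKM from 98.3 and 3.46 RPKM, Zyx, of focal adhesions, from 6.11 to 31.6 and Flna, an actin crosslinker, from 94.0 to 232 RPKM. The factor that drives many actin genes, Srf, rose from 11.5 to 24.3 RPKM (log2 fold 1.08, SE 0.27). Its cofactors Mkl1 and Mkl2 fell from 13.6 to 6.97 and from 17.3 to 7.12 RPKM. The 2 other falls were Tead4, a YAP partner, and Lats2, the kinase that holds YAP back, from 20.9 to 5.01 RPKM.

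SRF binds the CArG box, and the promoters of several of these genes hold one within 250 bases before to 50 after the start in RefSeq (GRCm38.p6). The box was found on either strand in 9 of the 31 tested list genes with a promoter in that table, whereas 1.81% of all genes there hold one. The list was drawn up partly around SRF, so this difference cannot be told apart from that choice. Of the 9, 6 were called higher and 0 lower, and most of the whole list was called higher too. Across the members with a promoter there, the median log2 fold was 0.03 with a box (117 genes) and 0.02 without (8958 genes). These stretches are shown because they carry the box, in capitals, in the 3 genes of the list with the largest called rises that have one, and in Srf itself, whose stretch holds another box nearer the start that is left in lower case. They lie at chr2:114052888-114052947 (minus strand) for Actc1, chr2:156775278-156775337 (plus strand) for Myl9, chr8:123894814-123894873 (minus strand) for Acta1 and chr17:46556210-46556269 (minus strand) for Srf.
Actc1: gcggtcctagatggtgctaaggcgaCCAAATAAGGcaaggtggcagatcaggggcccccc
Myl9: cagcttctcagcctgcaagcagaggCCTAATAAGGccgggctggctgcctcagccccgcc
Acta1: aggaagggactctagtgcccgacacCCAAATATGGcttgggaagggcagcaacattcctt
Srf: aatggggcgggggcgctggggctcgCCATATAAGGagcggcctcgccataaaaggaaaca
Myl7, which also holds a box, was at 1.96 and 1.69 RPKM and was not called, so a match is a description of the letters and no more.

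Junction genes split, with 12 rises and 14 falls among 41 (median −0.12). Gja1 (connexin 43) rose from 20.7 to 133 RPKM and Nes, an intermediate filament, from 2.86 to 19.05 RPKM, while Cldn3, a tight junction protein, fell from 38.1 to 6.38 and Dsp, of desmosomes, from 50.2 to 12.3 RPKM. In axon guidance 14 of 34 rose and 8 fell, with a median of 0.09 that became −0.01 under the same rescaling. The ligand Efnb2 rose from 1.23 to 22.7 RPKM (log2 fold 4.21, SE 0.37), and its class of receptor Epha4 fell from 16.9 to 2.77 RPKM. Of 68 genes of deadenylation and RNA decay 17 rose and 13 fell, with a median of 0.08 that became −0.02. The exosome genes Exosc2, Exosc3, Exosc7 and Dis3 rose with log2 folds between 1.79 and 2.18, and the adaptors of deadenylation Btg1, Btg2, Tob1 and Tob2 fell, Btg1 from 13.3 to 2.64 RPKM.

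Among chromatin regulators the lists differed. Of 42 genes of Trithorax and Polycomb complex 1 20 fell and 5 rose (median −0.28). The falls included the histone methyltransferases Kmt2a, Kmt2b, Kmt2c, Kmt2d and Kmt2e, with Kmt2c from 21.05 to 6.39 RPKM (log2 fold −1.72, SE 0.26), the demethylase Kdm5b from 201 to 74.8 RPKM, and the readers Cbx6 and Cbx8. The rises were those of Ash2l, Cbx7, Pcgf6, Phc2 and Yaf2. Of 49 genes of the BAF, NuRD and CHD remodellers 15 rose and 13 fell, with a median of 0.07 that became −0.02 after rescaling. Within NuRD the 3 paralogous Mta subunits diverged, Mta1 rising from 14.3 to 59.5 RPKM, Mta2 from 42.6 to 57.6 RPKM, and Mta3 falling from 151 to 35.04 RPKM (log2 fold −2.11, SE 0.27). In BAF the ATPase Smarca2 fell from 3.66 to 0.417 RPKM. Of 23 tested genes picked from the X chromosome 7 rose and 9 fell (median −0.04).

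**Figure D3:**
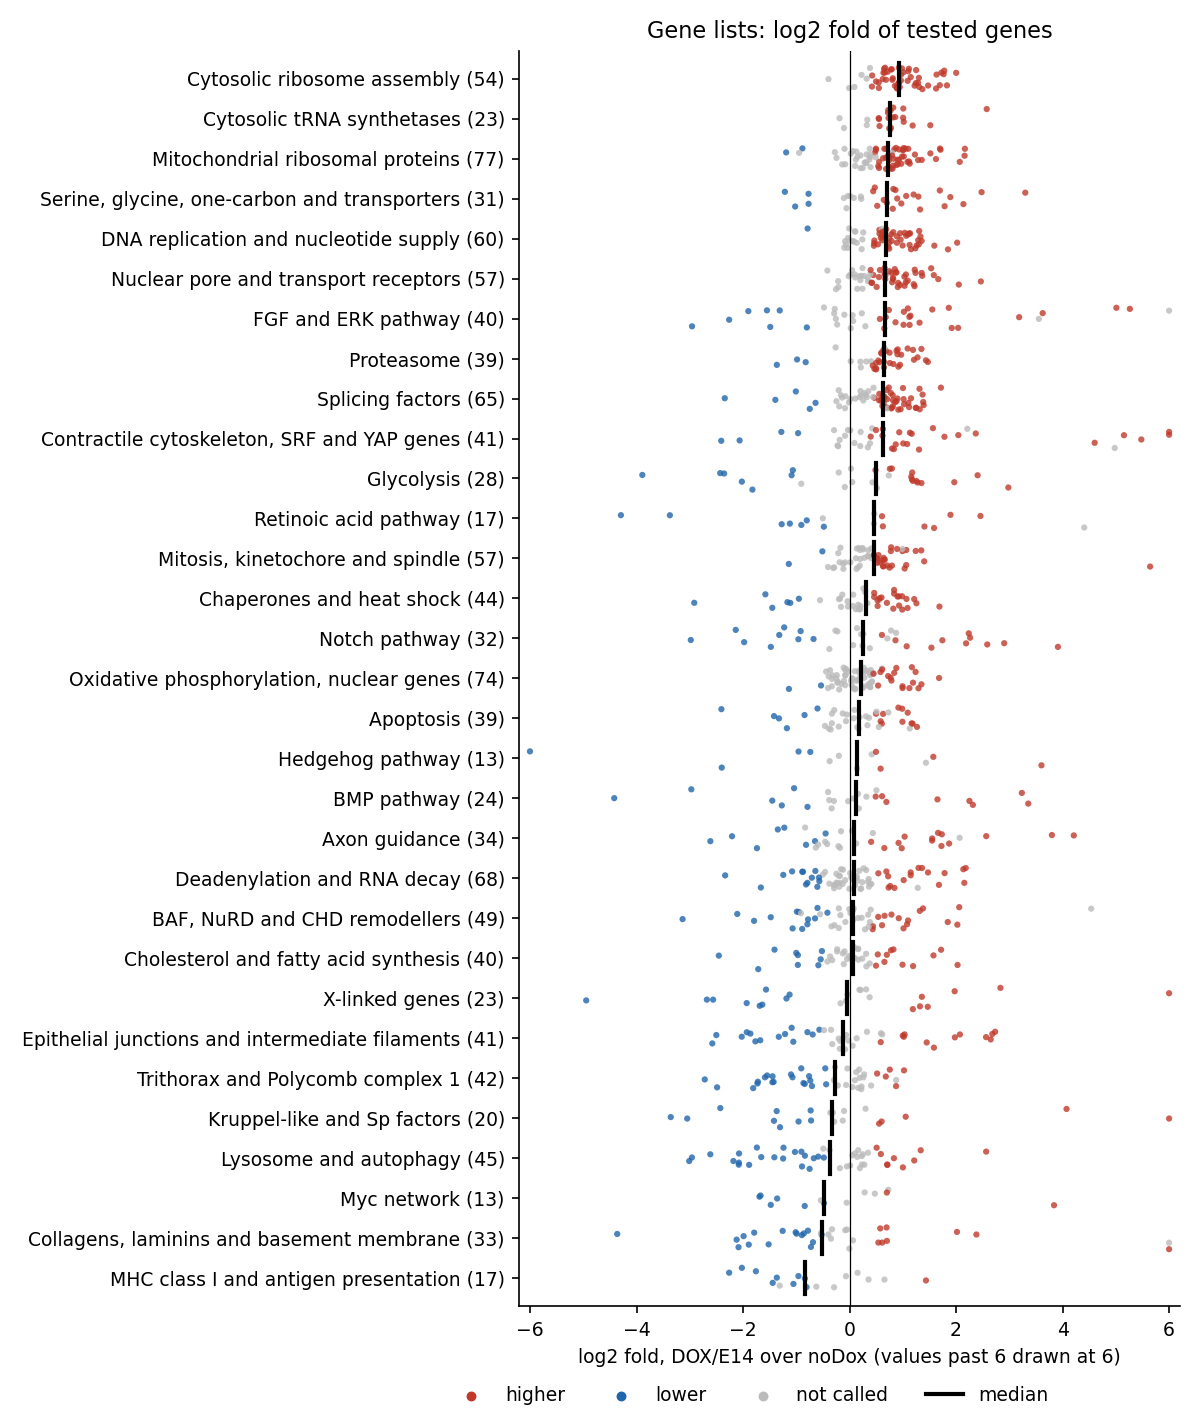
Log2 fold of DOX/E14 over noDox for every tested gene in 31 gene lists (number tested in brackets), ordered by the median (black bar), with folds past 6 and those from 0 drawn at 6. Red points were called higher, blue lower and grey not called; ribosome assembly sits highest with a median of 0.92 and MHC class I lowest with −0.84.

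Position along the chromosomes mattered little for whole chromosomes, whose medians ran from −0.16 (chromosome 6) to 0.19 (chromosome 14) among those with at least 30 genes, but runs of neighbours moved together. The longest run was at the far end of chromosome 12, chr12:112808974-118301440, where all 20 tested genes from BC022687 to Sp4 were called higher, and no tested gene lies beyond Sp4. Their median log2 fold was 1.48, against −0.27 for the 424 tested genes before that point, of which 94 were higher and 152 lower. A run is picked for calls in the same direction, so the high median of its genes follows from that. Crip2 and Crip1, small LIM domain proteins, rose from 6.21 to 60.4 and from 18.5 to 53.4 RPKM, Cdca7l, a chromatin factor, from 2.88 to 17.1, Ncapg2, of condensin II, from 5.19 to 13.1 and Rapgef5 from 0.524 to 3.62 RPKM. Jag2 and Mta1, described above, belong to this run, as Max and Mta3 belong to the runs of falls below, so their values in the pathways above are shared by their neighbours on the chromosome. The number of copies of these stretches in the lines was not measured. The smallest rises were those of Sp4, from 1.18 to 1.74 RPKM (log2 fold 0.55, SE 0.35, q = 0.0464), Esyt2 and Brf1.

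Earlier on the same chromosome, genes fell in blocks. Runs of 10 called falls covered chr12:76580488-78861638, with Max, the glutathione peroxidase gene Gpx2 (26.1 to 2.38 RPKM) and the erythroid spectrin gene Sptb (10.8 to 1.99 RPKM), and chr12:84114366-84546145, with Aldh6a1 (24.3 to 5.36 RPKM) and Entpd5 (8.11 to 1.26 RPKM). Of 221 windows of 5 Mb with at least 20 genes, whose medians had quartiles of −0.19 and 0.17, the window at 110 to 115 Mb of chromosome 12 was the highest, at 1.15 with 35 of 44 genes higher. Those at 70 to 75, 75 to 80 and 80 to 85 Mb were among the 4 lowest, at −0.80, −0.96 and −0.97, with 5 rises and 67 falls among 108 genes. The lowest of all was 130 to 135 Mb of chromosome 1, at −1.09 with 31 of 51 genes lower. On chromosome 17 a run of 12 falls, chr17:83706163-87000069, held Mta3 and Epas1, a hypoxia-inducible factor that went from 28.2 to 1.35 RPKM (log2 fold −4.39, SE 0.34). On chromosome 6 a run of 10 falls, chr6:133104909-134925513, held Crebl2 (10.9 to 0.791 RPKM), the Wnt coreceptor gene Lrp6 (44.8 to 15.3 RPKM) and Cdkn1b, an inhibitor of cyclin-dependent kinases (32.4 to 13.1 RPKM). The windows were chosen after the runs had been seen, and some neighbours share a locus in the table, up to 3 genes in 1 locus among these runs.

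The log2 fold varied with level, length and promoter. By sixths of mean RPKM the median log2 fold climbed from −0.25 in the lowest (1.00 to 2.93 RPKM) to 0.31 in the highest (above 41.2 RPKM), and the share of genes called lower dropped from 27.6% to 18.2%, after a peak of 34.0% in class 3. By the longest annotated transcript it went the other way, from 0.19 up to 1640 bases to −0.31 from 5599 bases, with 14.7% and 42.8% of genes called lower. Promoters with a CpG ratio (observed over expected) under 0.4, typical of tissue-restricted genes, had a median of −0.56 over 1118 genes, of which 17.9% were higher and 39.4% lower. At a ratio of 1 or more the median was 0.17 over 1245 genes, with 33.6% higher and 21.5% lower. The difference was present within each of 3 classes of mean RPKM, where low-ratio promoters had medians of −0.74, −0.46 and −0.16 and the others −0.09, −0.004 and 0.23. It was present within each of 3 classes of transcript length too, at −0.66, −0.42 and −0.57 against 0.28, 0.10 and −0.18. Both strands of the promoters were searched for 8 motifs, the CArG box among them. Genes with TGACGTCA, a match of 1.85% of all promoters, had a median of 0.12 against 0.01 without it. Those with CACGTG, found in 7.24% of promoters, had 0.10 against 0.01, and those with the CCAAT letters, found in 38.0%, had 0.03 against 0.01. In the other direction the 41 genes with TGATGNAAT, found in 0.973% of promoters, had −0.16 against 0.02, with 36.6% called lower. The 125 genes with ATGCAAAT, found in 1.77%, had −0.05 against 0.02, with 35.2% lower. For TATAAA (14.2% of promoters) the median was −0.03 against 0.02, and for GGAATG (14.7%) −0.01 against 0.02.

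**Figure D4:**
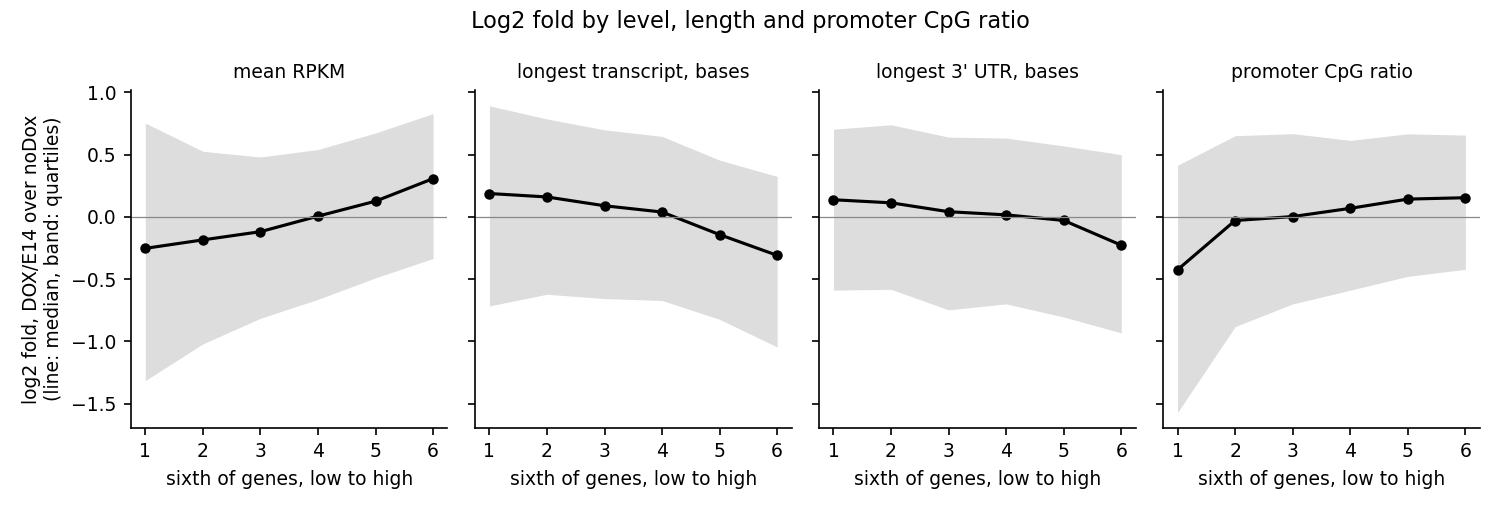
Median log2 fold (line) and quartiles (grey band) of DOX/E14 over noDox in sixths of genes by mean RPKM, longest transcript, longest 3′ UTR and promoter CpG ratio. The median rises with level and CpG ratio and falls with length, while the quartile bands stay far wider than these shifts.

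Matches to microRNA seeds were counted in the longest annotated 3′ UTR of 10992 tested members. Genes without a match to miR-294-3p had a median log2 fold of 0.07 (9038 genes), those with 1 match −0.21 (1577 genes) and those with 2 or more −0.36 (377 genes), and the share called lower was 27.6%, 36.3% and 43.0%. For miR-17-5p the medians were 0.07, −0.26 and −0.53, and 50.2% of the 253 genes with 2 or more matches were lower. For miR-92b-3p, whose seed is shared with miR-367-3p, they were 0.04, −0.28 and −0.61, with 53.2% of 79 genes lower. For let-7a-5p they were 0.02, −0.03 and 0.07, with 29.1%, 32.4% and 29.4% lower, so there was no such order. The seeds of miR-17-5p and miR-92b-3p were added after the data had been seen, and 912 of 2663 genes with a match to miR-294-3p or miR-17-5p match both, since the letters overlap.

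Long UTRs hold more matches and long-UTR genes fell more, so the same was read within 3 classes of UTR length. In the middle class (688 to 1819 bases) genes with 0, 1 and 2 or more matches to miR-294-3p had medians of 0.06, −0.16 and −0.51, and to miR-17-5p of 0.07, −0.26 and −0.72. In the longest class they were −0.03, −0.24 and −0.32 for miR-294-3p and −0.03, −0.28 and −0.52 for miR-17-5p. In the shortest class, where only 4 genes and 1 gene had 2 or more, 1 match gave −0.12 and −0.19 against 0.14 with none for either. For miR-92b-3p the order held in the longest class, at −0.07, −0.25 and −0.70, while in the middle class 1 match gave −0.31 against 0.05 and the 8 genes with 2 or more stood at 0.17. Matches to miR-294-3p that follow the letters CC, as in the B1 repeat family of the mouse genome, behaved otherwise: the 273 genes with only such matches had a median of −0.02 with 28.6% lower, near the 28.3% of all tested members, against −0.26 and 39.1% for the 1681 genes with another match.

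**Figure D5:**
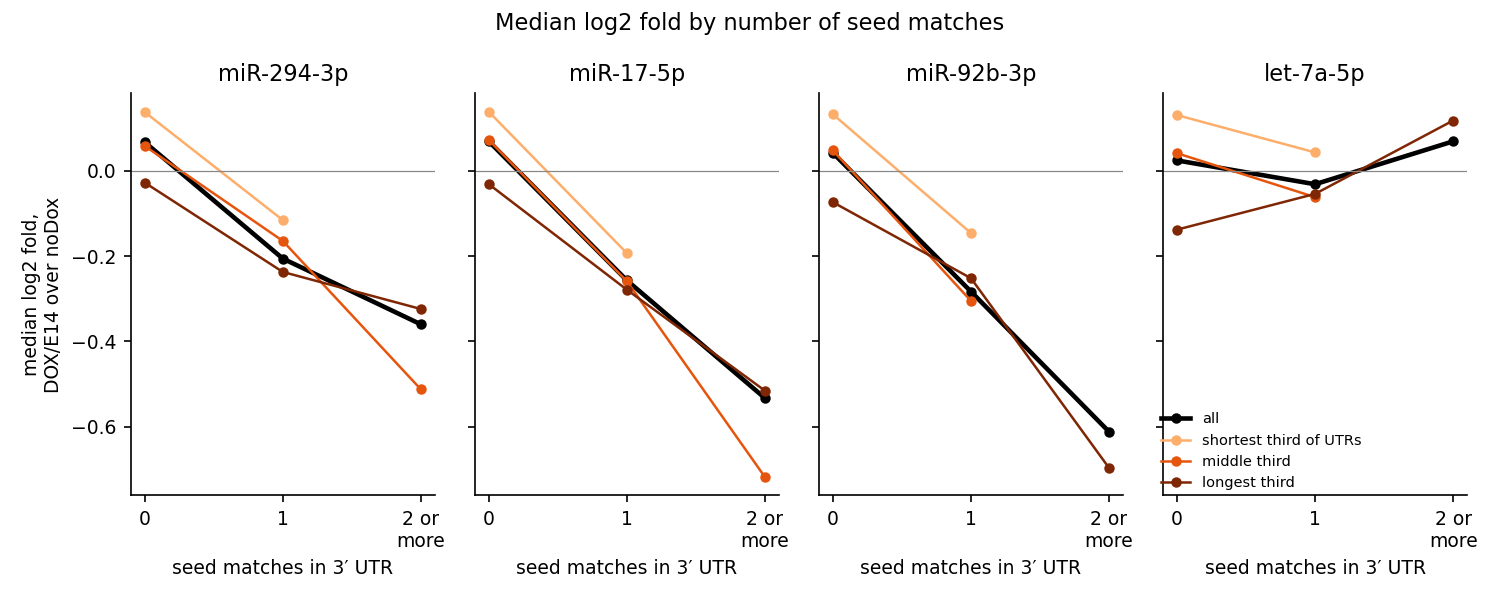
Median log2 fold of DOX/E14 over noDox (y axis) for genes with 0, 1 and 2 or more seed matches in the longest 3′ UTR (x axis), for 4 microRNAs, over all genes (black) and in 3 classes of UTR length (orange to brown). Classes under 20 genes are not drawn; the lines descend for the first 3 microRNAs, and for let-7a-5p they cross 0 in both directions.

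To see how the 4 seeds sit among others, the same median was taken for each of the 1187 seeds of mouse microRNAs with a match in at least 500 UTRs, less the median of genes of like UTR length in 10 classes. The lowest of the 1187 was the seed of miR-17-5p, miR-20a-5p, miR-93-5p and miR-106b-5p, at −0.23 over 1621 genes. The next was that of miR-92b-3p, miR-25-3p and miR-367-3p, at −0.22 over 825 genes. Places 3, 4 and 5 went to miR-3965, miR-12192-5p and the seed of miR-130a-3p and miR-301a-3p, each at −0.16, and place 6 to miR-291b-3p and miR-350-5p. The seed of miR-294-3p, miR-295-3p and miR-302b-3p was in 7th place, at −0.15 over 1954 genes, followed by miR-7687-5p, and that of miR-19a-3p was in 13th, at −0.13. The median over all seeds was −0.006, and let-7a-5p stood in place 1090, at 0.05. Several of the leading seeds share letters with each other, and the ranking was made after the data had been seen, so places are a description only.

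The genes that fell and hold the most matches to miR-294-3p or miR-17-5p, among those with at least 20 RPKM in noDox, were Chmp4c, Fnbp1, Phlpp2, Tmem64 and Zfp704. The 30 bases around a match in 4 of them show the letters in place, with the match in capitals, read from GENCODE M21 transcripts.
Chmp4c: ggagctgagtgAGCACTTgtgggcggtgct
Phlpp2: tgtgtaacgagAGCACTTTtcattgactgt
Tmem64: cctataggtgtGCACTTTagtgtttttgaa
Zfp704: aagatgaggttAGCACTTTtaggtaccagt
Chmp4c, an ESCRT protein that delays the final cut of cell division, has 5 matches in 5364 bases and fell from 54.4 to 5.29 RPKM (log2 fold −3.36, SE 0.33). Phlpp2, a phosphatase that removes an activating phosphate from AKT, has 3 in 3763 bases and fell from 41.7 to 3.69 RPKM (log2 fold −3.50, SE 0.28). Tmem64 has 3 in 3403 bases and fell from 79.2 to 9.74 RPKM, and Zfp704 has 3 in 11767 bases and fell from 21.1 to 4.67 RPKM. Fnbp1, with 4 matches, fell from 36.6 to 14.9 RPKM, and its first match follows CC. These genes were picked for having fallen, so they show what a match looks like and add no support, and none of the matches was tested as a site.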

How the data were processed

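Per the submitters' processing notes, reads were handled with bcl2fastq 2.17.1, TopHat and Cuffdiff on mm10 (GRCm38), with no other version given; the annotation and the use of strand are not given in the sources used here. Libraries were made with a directional kit after depletion of ribosomal RNA, per the labels. The deposited RPKM values, 1 per group, the test statistic (a signed score) and the p-value and q-value are the authors' own, per the file headers. Reads of overlapping or near-identical genes and of short RNA genes are therefore uncertain, and 3111 members share a locus with another gene in the table.

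Each log2 fold is that of the 2 deposited RPKM values without a pseudocount; a gene listed at 0 in a group gets no fold. The SE is the absolute log2 fold over the absolute statistic; the p-values imply a z 1.41 times the statistic (median), so this SE is mostly larger than theirs. A call is q < 0.05 in the authors' deposited table, where the lowest q is 0.00017. q stays adjusted over the whole table, and no model was refitted. The analysis used Python 3.11.15 with numpy 2.4.6, pandas 2.3.3, scipy 1.17.1 and matplotlib 3.10.9, and was tested on simulated data. The members, the gene lists, the rules and the questions asked were chosen with earlier results of these data known.

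Named genes were the 15 largest called rises and falls (at least 20 RPKM in the higher and 0.1 RPKM in the lower group), the 10 most abundant called genes of each direction at or below 0.1 RPKM in the other group, the 3 largest rises and falls per list, the 10 highest genes per group, the 10 smallest differences among genes at 100 RPKM or more in both groups, and the genes of the 5 longest runs. Other list members, the genes with seed matches and the line checks were named after their values were seen. Classes, chromosomes, windows, promoters and seed matches used genes with a mean of at least 1 RPKM. 3′ UTRs and positions came from GENCODE M21 (GRCm38), matched by symbol for 12361 members, and promoters and microRNAs from RefSeq (GRCm38.p6). Alternatives were another minimum, another threshold, a pseudocount, centring and rescaling. Some genes that the rules name are not reported here.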

Additional observations from a re-analysis of the deposited data

How the results depend on the processing

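No paired analysis was possible because the table gives 1 value per group, so neither a replicate block nor leaving out a library could be run. Of the other alternatives for the count of changed genes, requiring an absolute log2 fold of at least 1 moved it by over 1.5 times, from 6878 to 3897 genes, with 1666 higher and 2231 lower. The other minimum levels and q under 0.01 kept all 3 counts within 1.5 times. So did centring on the median and, chosen after seeing the data, rescaling RPKM without short RNA genes (a shift of −0.09 on the log2 scale). The deposited q was not recomputed, so centring and rescaling could hardly move these counts. All tested genes were members, so dropping the minimum could not move them. A pseudocount of 1 RPKM cannot turn the direction of a fold, and centring and rescaling shift all folds by a small constant. Called named genes with a finite fold therefore had to keep their direction under these settings. Uncalled genes close to 0, among them Sod1, Mcm7 and Gpi1, changed sign under centring and rescaling. List, chromosome, seed and promoter medians moved by less than a typical SE of a single gene. That limit is loose, since many of these medians are themselves smaller than it. Medians close to 0 changed sign for 4 lists under rescaling, as given beside them. Chromosomes 1, 4, 11, 16 and 18 did so under another minimum, as did the promoter class at a ratio of 0.6 to 0.8. The let-7a-5p matches did so under another match. Depth is unknown, and 511 members were untested.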

Other observations

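Some of the families sharing a symbol prefix, picked after the data had been seen from those with at least 40 tested members, are given here. Of all tested members 27.2% were higher and 28.3% lower. Among 205 solute carriers (Slc), the membrane transporters, 46 were higher (22.4%) and 80 lower (39.0%) in DOX/E14, with a median log2 fold of −0.24. Among 56 Rab genes, GTPases of vesicle traffic, 7 were higher (12.5%) and 19 lower (33.9%, median −0.25). Among 62 genes starting with Atp, which include ATP synthase subunits as well as ion pumps, 9 were higher (14.5%) and 20 lower (32.3%, median −0.11). Translation initiation factors (Eif) went the other way, with 30 of 52 higher (57.7%) and 5 lower (9.6%, median 0.53). The 301 zinc finger genes named Zfp were close to the shares of all members, with 82 rises (27.2%) and 67 falls (22.3%, median 0.08).

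Biotypes could be compared only where enough genes were tested. Of 98 antisense genes with a mean of at least 1 RPKM 4 were called higher and 9 lower, with a median log2 fold of −0.53, and of 82 lincRNA genes 10 were higher and 23 lower (median −0.21). None of 81 snoRNA genes was called by Cuffdiff.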
